A study of Mus musculus with 12 samples.

Results

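The mitochondrial ribosomal protein genes were taken as all genes whose symbol starts with Mrpl or Mrps followed by a digit, from probe sets annotated to exactly 1 symbol. There were 76 such genes, measured by 147 probe sets, among 15858 genes and 28805 probe sets on the array. Of these genes, 49 encode proteins of the large subunit and 27 proteins of the small subunit. Mrps30 and Mrps18a were counted in the large subunit, where their proteins sit in spite of their names, and Mrps36 was kept by its symbol although its protein is now placed in the oxoglutarate dehydrogenase complex. Values of several probe sets of a gene were averaged; 37 genes had 1 probe set and 39 had several, up to 7.

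The mitochondrial ribosome translates the few messenger RNAs made from mitochondrial DNA, all of which encode core subunits of the respiratory chain and ATP synthase. Its ribosomal RNAs come from mitochondrial DNA, whereas every protein of both subunits is encoded in the nucleus, made in the cytosol and imported. Some of these proteins descend from bacterial ribosomal proteins and others were added in the mitochondrial lineage, and blood cell precursors depend on this translation for oxidative phosphorylation.

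RNA came from mouse bone marrow cells (C57BJ/6 in the design text, C57BL6 in the sample labels) immortalised with HoxA9, transduced with a retrovirus, transplanted into irradiated recipients and sorted for GFP 4 weeks later. Each of 4 groups had 3 arrays: empty vector, wild-type IDH1 (IDH1wt, the construct pSF91-IDH1wt-IRES-EGFP), mutant IDH1 (IDH1mut, pSF91-IDH1mut-IRES-GFP), and empty vector cells in recipients given R-2HG (R-2-hydroxyglutarate, the metabolite made by mutant IDH1) at 1 mg per day for 4 weeks. HoxA9, transduction, transplantation and sorting were thus shared by all groups; the amino acid changed in IDH1mut and the age of the mice are not given in the labels. The R-2HG group follows the sample titles, source names and construct labels, which give the empty vector, whereas the description line of the same 3 samples names the mutant vector. The labels do not say whether replicates came from separate mice, so each p-value is set by the variation among these 3 arrays a group alone, and that variation may be technical.

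The deposited values are log2 signals centred on 0 for each probe set. They show how an array stood to the other arrays for 1 gene, not how abundant a transcript was, so no gene's level could be set against another gene's and the presence of cell type markers could not be checked. In bulk RNA of sorted cells, fewer cells of a type and less RNA per cell cannot be told apart. The 3 R-2HG arrays did not stand alike: the median of 8 of 9 mast cell, basophil and eosinophil markers was -2.57 and -2.76 in replicates 1 and 2 but 0.41 in replicate 3, against 0.32 to 0.45 in the empty vector arrays. For most lists, counts or median log2 fold changes of the R-2HG group are therefore also given from replicate 3 alone and from replicates 1 and 2 alone.

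Among members with a start region entry, the 4 that differed most among the 4 groups by F statistic are shown (Mrps30, Mrpl39, Mrps6 and Mrpl50). Mrps28 was also among the members with the largest F statistics, but had no such entry and is not shown. A further 3 start regions were chosen after their values were seen. These were Mrpl12, Mrpl33 and the stretch between the starts of Mrpl46 and Mrps11, members that are read away from each other. Mrpl12 had a large fall in both the R-2HG and the IDH1mut group, and Mrpl33 was the 1 member that rose. The sequences are from RefSeq on GRCm38.p6, 5′ to 3′ on the strand of the gene, and end at the base before its start. Each holds 250 bases, or fewer where a gene on the other strand starts within them. Capitals mark matches on either strand to the recognition letters of NRF1 (GCGCANGCG), of ETS factors such as GABP (CCGGAAG), of YY1 (AANATGGCG) or of E-box factors such as MYC (CACGTG).
Mrps30, chr13:118387253-118387502, minus strand: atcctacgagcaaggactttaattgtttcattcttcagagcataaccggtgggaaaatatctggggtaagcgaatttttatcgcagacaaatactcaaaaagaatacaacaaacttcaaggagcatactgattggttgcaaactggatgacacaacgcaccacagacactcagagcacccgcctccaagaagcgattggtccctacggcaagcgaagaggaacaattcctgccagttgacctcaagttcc
Mrpl39, chr16:84735245-84735494, minus strand: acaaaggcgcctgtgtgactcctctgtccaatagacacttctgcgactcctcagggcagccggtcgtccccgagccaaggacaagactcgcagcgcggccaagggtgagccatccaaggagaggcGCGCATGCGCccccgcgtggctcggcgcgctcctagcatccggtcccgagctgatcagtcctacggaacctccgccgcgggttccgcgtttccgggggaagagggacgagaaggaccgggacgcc
Mrps6, chr16:92058086-92058335, plus strand: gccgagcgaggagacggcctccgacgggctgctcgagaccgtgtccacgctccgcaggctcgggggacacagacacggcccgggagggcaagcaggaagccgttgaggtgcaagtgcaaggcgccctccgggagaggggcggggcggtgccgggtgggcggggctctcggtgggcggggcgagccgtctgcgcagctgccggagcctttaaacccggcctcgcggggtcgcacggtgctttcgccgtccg
Mrpl50, chr4:49521084-49521176, minus strand: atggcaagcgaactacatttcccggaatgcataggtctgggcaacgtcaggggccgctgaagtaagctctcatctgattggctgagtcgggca
Mrpl12, chr11:120484387-120484636, plus strand: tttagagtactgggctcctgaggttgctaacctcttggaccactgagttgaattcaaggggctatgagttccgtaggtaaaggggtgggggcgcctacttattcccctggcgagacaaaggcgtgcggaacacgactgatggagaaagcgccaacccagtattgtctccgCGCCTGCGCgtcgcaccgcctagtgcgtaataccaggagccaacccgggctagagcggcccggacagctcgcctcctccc
Mrpl33, chr5:31613701-31613950, plus strand: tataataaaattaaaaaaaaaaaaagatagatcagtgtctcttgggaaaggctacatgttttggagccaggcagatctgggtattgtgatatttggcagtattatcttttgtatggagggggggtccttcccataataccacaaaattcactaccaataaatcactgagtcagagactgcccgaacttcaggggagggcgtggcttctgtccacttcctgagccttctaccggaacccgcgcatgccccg
Mrpl46 to Mrps11, chr7:78783090-78783131, minus strand (that of Mrpl46): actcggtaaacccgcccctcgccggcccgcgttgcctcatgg

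Of the 7 stretches shown, those of Mrpl39 and Mrpl12 held an NRF1 match, and the others held none of these letters within the bases printed. Over the full windows of 300 bases, 250 before the start and 50 after it, 67 of the 76 members had an entry. The NRF1 letters were in 22.4% of member windows and 11.5% of the 12594 windows of genes on the array. The ETS letters were in 35.8% against 15.2%, the YY1 letters in 16.4% against 4.33%, and at least 1 of these 3 motifs in 59.7% against 27%. The E-box letters were in 7.46% against 9.35%, CCAAT in 38.8% against 38.1% and the GC box letters GGGCGG, which can overlap other motifs, in 50.7% against 57.5%. The median GC content of the windows was 58.3% in members and 59.7% over the array.

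Members also lay head to head with another gene more often than genes on the array in general, which is given as a description with no test. Another gene started within 1000 bases upstream on the other strand in 25 of 67 members, or 37.3%, against 16.1% of the 12594 genes. In 1 of these arrangements both genes were members: Mrpl46 and Mrps11, which start 42 bases apart.

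In the R-2HG group, nearly the whole set was lower than in empty vector cells. By limma with p-values adjusted over all genes (adjusted p under 0.05), 69 of the 76 genes were lower, 1 was higher (Mrpl33) and 6 were not called. Over all genes 24.3% were called lower and 16.5% higher. The median log2 fold change was -0.46 over the members and 0.00 over all genes. The groups of arrays did not overlap, with every R-2HG array lower, in 71 members, against 29.8% of all genes.

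The pattern ran across both subunits. In the large subunit 45 of 49 genes were lower, with a median log2 fold change of -0.46, and in the small subunit 24 of 27, with a median of -0.50. Of the 45 members with a counterpart in the bacterial ribosome 41 were lower (median -0.42), and of the 31 with none listed 28 were lower (median -0.52). With R-2HG replicate 3 as the only treated array the medians were -0.366 in the large and -0.425 in the small subunit. By bacterial counterpart they were -0.329 with one and -0.425 with none listed. With replicates 1 and 2 alone 43 of 49, 24 of 27, 40 of 45 and 27 of 31 were lower, in the same order. In size, 33 of the 76 fell by at least 0.5 on the log2 scale and 1 by at least 1.

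**Figure D1:**
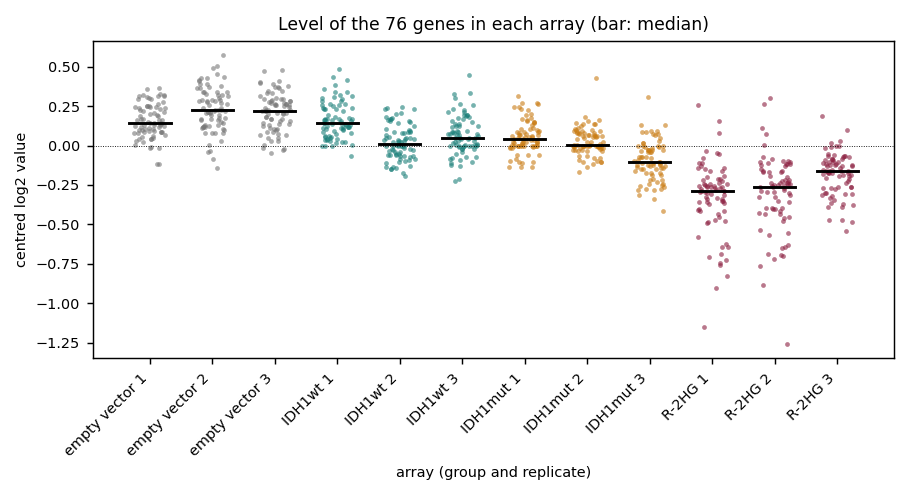
Centred log2 values (vertical axis) of the 76 genes in each of the 12 arrays (horizontal axis, by group and replicate); each point is a gene and each bar the median over the genes. The medians of the R-2HG arrays lie at -0.29, -0.26 and -0.16, below those of every other array.

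The median of the 76 genes was 0.15, 0.22 and 0.22 in the empty vector arrays and 0.15, 0.01 and 0.05 in the IDH1wt arrays. It was 0.04, 0.01 and -0.11 in the IDH1mut arrays and -0.29, -0.26 and -0.16 in the R-2HG arrays. The R-2HG arrays were the 3 lowest of the 12, and IDH1mut replicate 3 was the next lowest. In R-2HG replicates 1, 2 and 3, 72, 72 and 73 of the 76 genes lay below all 3 empty vector arrays, against 40.8%, 40.7% and 38.7% of all genes. Within the R-2HG group, replicate 3 held the highest value of 56 members. The R-2HG group had the lowest mean of the 4 groups in 69 members, against 34.1% of all genes. The full order empty vector, IDH1wt, IDH1mut, R-2HG from high to low appeared in 43 members, and its share over all genes was not computed.

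**Figure D2:**
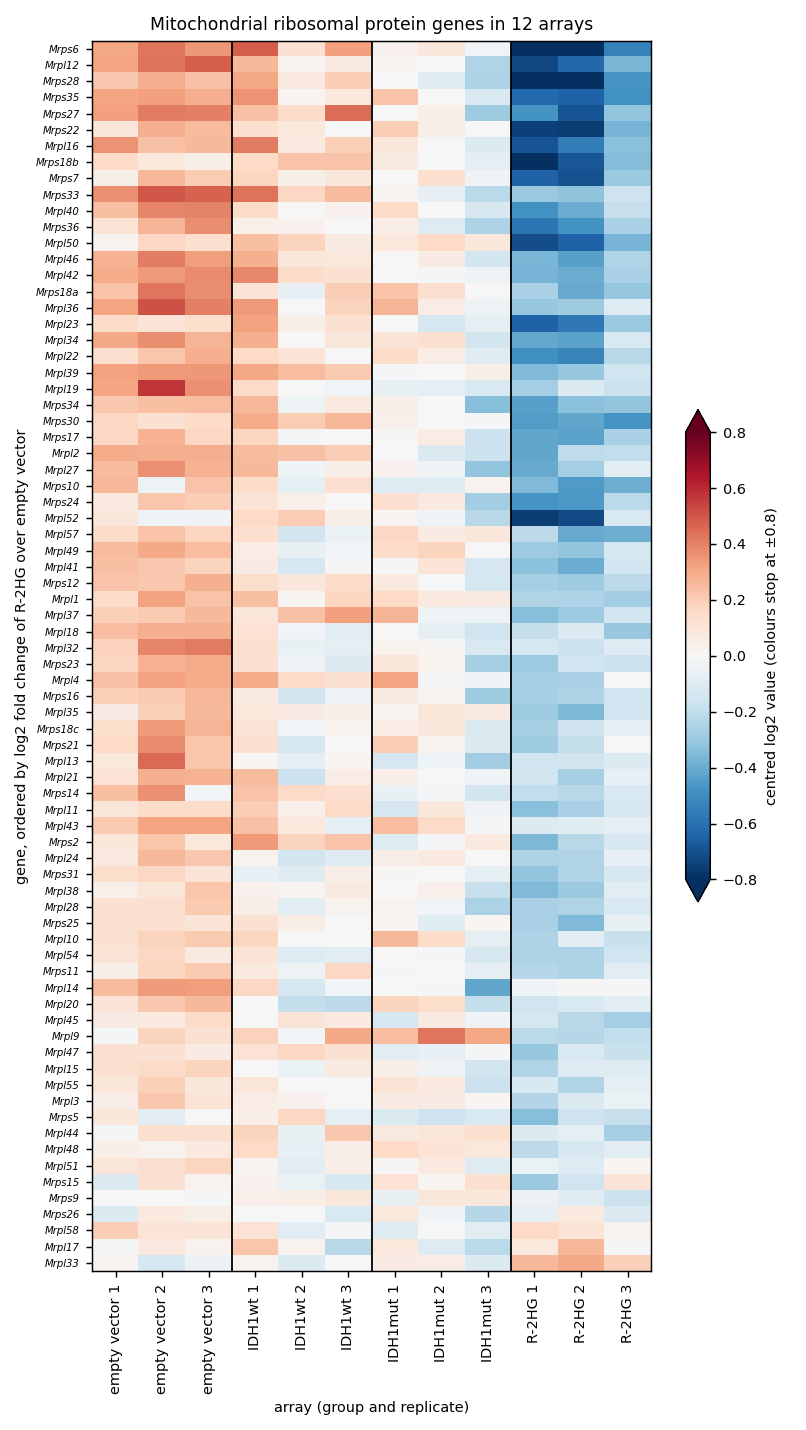
Centred log2 values (colour) of the 76 genes (rows, ordered by the log2 fold change of R-2HG over empty vector) in the 12 arrays (columns, by group and replicate). The R-2HG columns are below 0 in nearly all rows and strongest in replicates 1 and 2, and Mrpl33 in the last row is above 0 in all 3.

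With R-2HG replicate 3 as the only treated array, taken to vary like the arrays of the other groups, 30 members were lower and 0 higher, the median log2 fold change was -0.37, and 8.09% of all genes were called lower. With replicates 1 and 2 alone, 67 were lower and 1 higher, the median was -0.49, and 25.5% of all genes were called lower. With replicate 3 alone 2 of the 8 mast cell, basophil and eosinophil markers measured were called lower, and with replicates 1 and 2 alone 8 were.
Summed over each marker list, the centred log2 values of the mast cell, basophil and eosinophil markers ran from -23.82 to 2.41 in R-2HG arrays and from 2.49 to 3.84 in empty vector arrays. The 8 of 10 erythroid markers measured ran from -11.77 to -0.14 against -4.99 to -4.83. The 7 of 8 B cell markers ran from -3.95 to -3.28 against 0.16 to 5.74, and the 6 of 7 T and NK cell markers from -3.13 to -0.21 against 0.87 to 1.81. The 8 monocyte and dendritic cell markers ran from -5.9 to 1.85 against 1.04 to 2.35, and the 11 neutrophil lineage markers from -0.78 to 1.38 against -0.73 to 0.02. B cell sums, T and NK cell sums and mast cell, basophil and eosinophil sums were thus lower in all 3 R-2HG arrays. For the mast cell, basophil and eosinophil markers replicate 3 lay close to empty vector, at 2.41 against 2.49. Opposite changes cancel in a sum: of the 11 neutrophil lineage markers 3 were called higher and 4 lower with R-2HG. Over all genes 16.5% were called higher and 24.3% lower. The part of these markers in the result was not tested.

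Among large subunit genes the largest falls were in Mrpl12 and Mrpl16. Mrpl12 encodes the counterpart of the bacterial L7/L12 stalk protein, which takes part in recruiting translation factors and also binds the mitochondrial RNA polymerase. Its centred log2 values were 0.32, 0.43 and 0.48 in empty vector arrays and -0.73, -0.63 and -0.37 in R-2HG arrays. The R-2HG arrays were all lower than every array of the other groups. The log2 fold change was -0.98 ± 0.11 (SE, n = 3 arrays a group; limma adjusted p = 9.1e-05).

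Mrpl16, a protein near the tRNA sites of the large subunit, stood at 0.36, 0.24 and 0.26 with empty vector and at -0.69, -0.56 and -0.33 with R-2HG. The groups did not overlap (log2 fold change -0.81 ± 0.11, limma adjusted p = 0.000214). Mrpl39, a large subunit protein with no listed bacterial counterpart, stood at 0.32, 0.34 and 0.35 with empty vector and at -0.36, -0.30 and -0.16 with R-2HG, a log2 fold change of -0.61 ± 0.07 (limma adjusted p = 9.25e-05).

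Mrps30, which belongs to the large subunit, varied little within groups and had the largest F statistic of all members. It stood at 0.17, 0.12 and 0.15 with empty vector and at -0.45, -0.41 and -0.47 with R-2HG. All 3 R-2HG arrays lay well below the rest, replicate 3 included (log2 fold change -0.59 ± 0.06, limma adjusted p = 6.35e-05). In Mrpl50 the R-2HG arrays at -0.71, -0.65 and -0.37 also lay below all 9 others, which ran from 0.03 to 0.24 (log2 fold change -0.69 ± 0.09, limma adjusted p = 0.000211).

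Mrpl3, Mrpl44 and Mrpl11 had smaller changes. Mrpl3, a protein near the peptidyl transferase centre, changed by -0.26 ± 0.07 (limma adjusted p = 0.0108) and Mrpl44, a protein with an RNase III fold, by -0.23 ± 0.09 (limma adjusted p = 0.0499). Mrpl3 was not called without empty vector replicate 2 (limma adjusted p = 0.0515) or R-2HG replicate 1 (0.0552). Mrpl44 was just past the threshold and lost its call with robust moderation (limma adjusted p = 0.0503), quantile normalization (0.107), the replicate number as a block (0.0767), its 6 arrays alone (0.0586), and with any single array left out other than empty vector replicate 1 or IDH1wt replicate 2. Mrpl11, part of the stalk base, changed by -0.37 ± 0.08 (limma adjusted p = 0.00353). With R-2HG replicate 3 as the only treated array none of the 3 was called (limma adjusted p = 0.255, 0.0942 and 0.162).

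Small subunit genes held 8 of the 10 largest falls. Mrps6, which encodes the counterpart of bacterial S6, fell most: its values were 0.31, 0.43 and 0.35 with empty vector and -1.15, -1.26 and -0.54 with R-2HG. Replicate 3 was the highest of its group and was still below every array of the other groups. The log2 fold change was -1.34 ± 0.16 (limma adjusted p = 0.000116), the largest fall among the members.

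Mrps28 stood at 0.22, 0.29 and 0.24 with empty vector and at -0.83, -0.89 and -0.47 with R-2HG (log2 fold change -0.98 ± 0.11, limma adjusted p = 0.000101). Mrps35, which has no bacterial counterpart, stood at 0.32, 0.33 and 0.29 against -0.62, -0.65 and -0.48 (log2 fold change -0.90 ± 0.10, limma adjusted p = 0.00012). In both genes the groups did not overlap and replicate 3 fell least. Mrps27, a pentatricopeptide repeat protein, changed by -0.88 ± 0.12 and Mrps22, a protein of the mitochondrial lineage tied to human disease, by -0.84 ± 0.11. Mrps18b changed by -0.74, Mrps7, an RNA-binding protein of the subunit's head, by -0.72 and Mrps33 by -0.70, and all 5 were called.

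The 3 genes related to bacterial S18 were all lower: Mrps18a by -0.67 ± 0.09, Mrps18b by -0.74 ± 0.11 and Mrps18c by -0.42 ± 0.09. Mrps12, the counterpart of the bacterial decoding centre protein in which streptomycin resistance arises, changed by -0.50 ± 0.07. Mrps16, lost in a human translation defect, changed by -0.44 ± 0.09 (limma adjusted p = 0.00324). With R-2HG replicate 3 as the only treated array Mrps18c and Mrps16 were not called (limma adjusted p = 0.118 and 0.112).

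**Figure D3:**
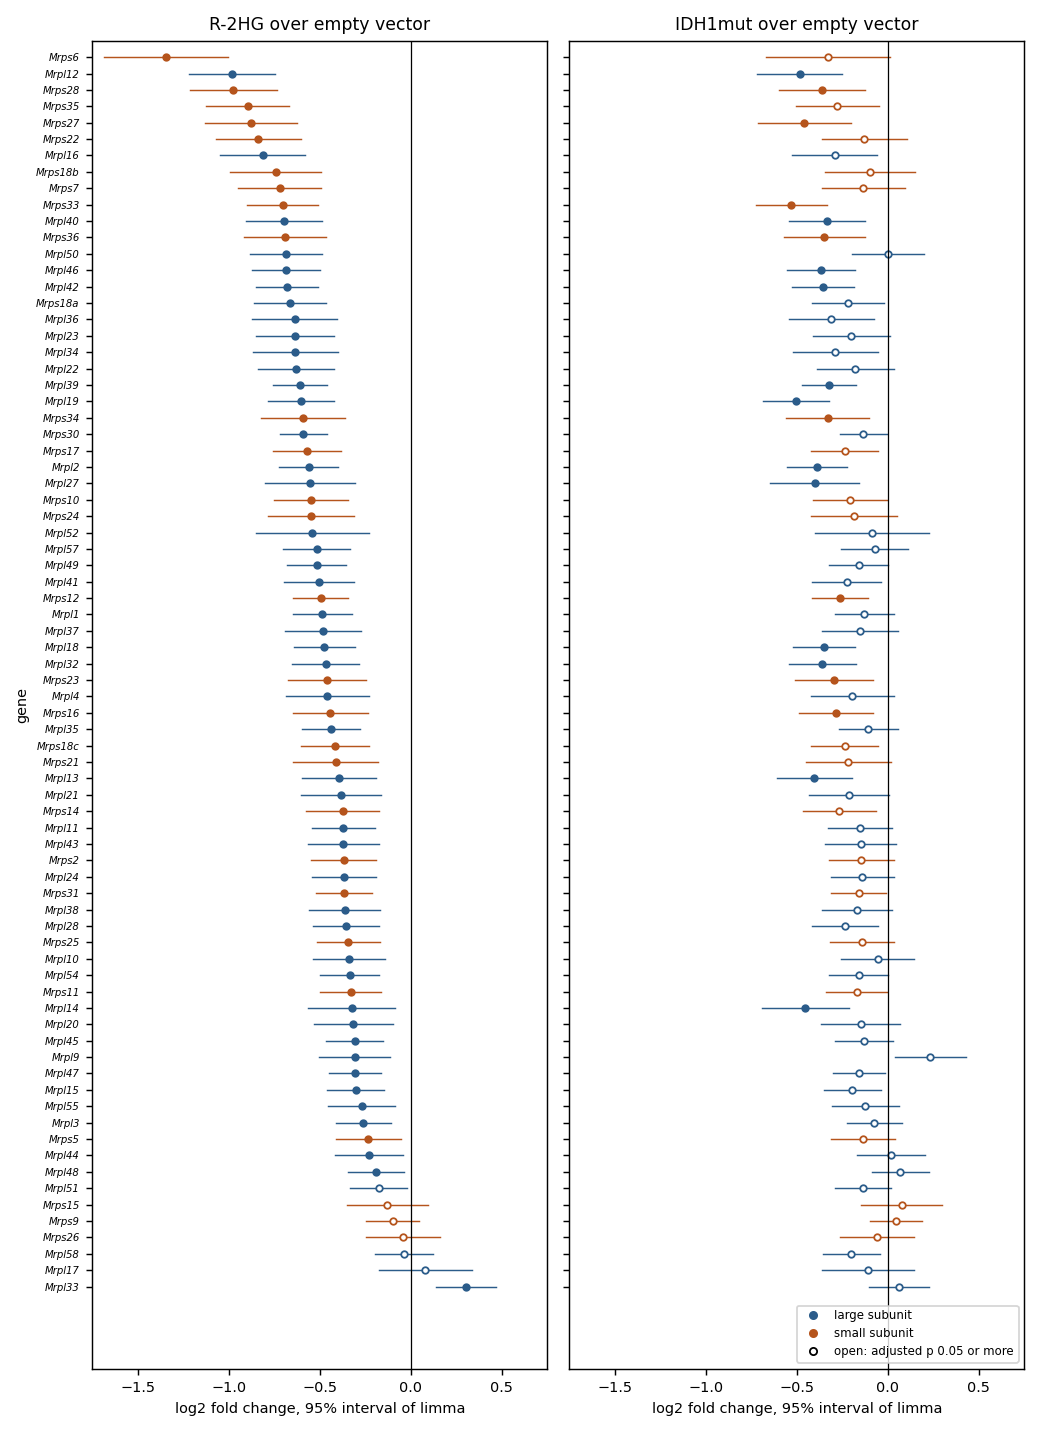
Log2 fold change (horizontal axis, point) with the 95% interval of limma (line) for each of the 76 genes (vertical axis) in R-2HG over empty vector (left) and IDH1mut over empty vector (right), by subunit; open points had an adjusted p of 0.05 or more. In the left panel 69 points lie below 0 and are filled, from -1.34 in Mrps6, and in the right panel 20 do, the lowest at -0.53 in Mrps33.

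Mrpl33, a small large-subunit protein that has a bacterial counterpart, was the exception. Its values were 0.02, -0.14 and -0.05 with empty vector and 0.26, 0.30 and 0.19 with R-2HG, without overlap. The log2 fold change was 0.30 ± 0.08 (limma adjusted p = 0.00778), and 0.24 with R-2HG replicate 3 as the only treated array (limma adjusted p = 0.191). Its probe sets differed: 1425843_at changed by 0.55 (limma adjusted p = 0.000643) and 1448190_at by 0.06 (limma adjusted p = 0.62).

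Probe sets of 1 gene also went in opposite directions in 6 other members. Taken singly, 104 of the 147 probe sets were lower and 7 higher with R-2HG, against 23.8% lower and 15.7% higher over all probe sets. The 7 higher ones belonged to Mrpl17, Mrpl33, Mrpl47, Mrpl48, Mrpl58, Mrps11 and Mrps15, and all but Mrpl33 had another probe set called lower. Each of the 7 carried the plain suffix _at, which marks 93 of the 147. Of these 93, 60 were lower, and of the 31 with the suffix _a_at, designed to match several transcripts of the same gene, 28 were lower and 0 higher.

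**Figure D4:**
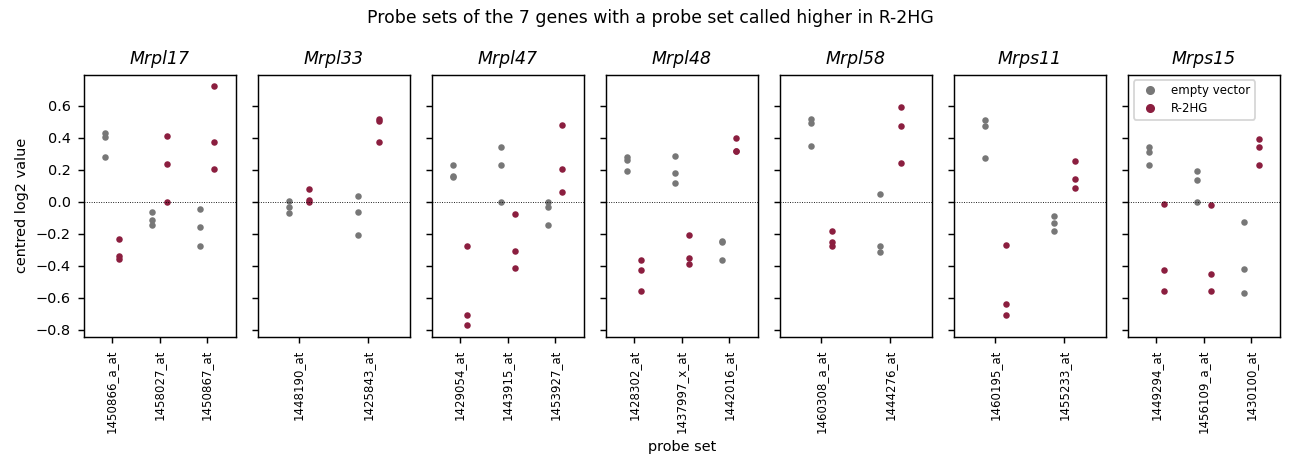
Centred log2 values (vertical axis) in the empty vector (grey) and R-2HG (red) arrays for every probe set (horizontal axis) of the 7 genes that have a probe set called higher with R-2HG. Within Mrpl58, for example, 1460308_a_at is lower and 1444276_at higher in all 3 R-2HG arrays.

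Mrpl58, the peptidyl-tRNA hydrolase that rescues stalled mitochondrial ribosomes, shows how averaging hides this. Probe set 1460308_a_at stood at 0.35, 0.49 and 0.52 with empty vector and at -0.28, -0.25 and -0.18 with R-2HG (log2 fold change -0.69, limma adjusted p = 0.000284). Probe set 1444276_at stood at 0.05, -0.28 and -0.31 and rose to 0.59, 0.47 and 0.24 (log2 fold change 0.61, limma adjusted p = 0.00207). The mean over both changed by -0.04 ± 0.07 and was not called. Mrpl17 (mean change 0.08, probe sets from -0.68 to 0.59) and Mrps15 (mean change -0.13, probe sets from -0.63 to 0.70) were likewise not called. Of the members called lower, Mrps11 had probe sets at -0.96 and 0.30, Mrpl47 at -0.77, -0.46 and 0.31, and Mrpl48 at -0.70, -0.51 and 0.63. The mean of Mrpl48 changed by -0.19 and lost its call with robust moderation (limma adjusted p = 0.0514) and quantile normalization (0.214). It also lost it with the replicate number as a block (limma adjusted p = 0.0699), its 6 arrays alone (0.0518) and any 1 empty vector array left out (0.0877 to 0.129). The other members not called were Mrpl51 (-0.18, limma adjusted p = 0.0631), Mrps9 (-0.10) and Mrps26 (-0.04).

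Members with and without a promoter match were compared by counts alone. With R-2HG, 12 of 15 members with the NRF1 letters and 48 of 52 without were lower, at median log2 fold changes of -0.34 and -0.48. For the ETS letters these counts were 19 of 24 and 41 of 43 (medians -0.47 and -0.47), and for the YY1 letters 10 of 11 and 50 of 56 (medians -0.55 and -0.43). Of 23 neighbours on the other strand that are on the array and no members, 8 were lower (34.8%, against 24.3% of all genes) and 5 higher (against 16.5%), with a median log2 fold change of -0.10. Pnpla7, for example, changed by 0.51 beside Mrpl41 at -0.51, and Tcp1 by -0.59 beside Mrpl18 at -0.48; both pairs were chosen after their values were seen.

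In the IDH1mut group fewer members were called against empty vector cells. By limma on the values averaged per gene 20 of the 76 were lower and 0 higher. An unadjusted p under 0.05 in either direction was found in 38, against 35% of all genes. Over all genes 12.1% were called lower and 10.5% higher. The median log2 fold change was -0.19 over the members and -0.05 over all genes. Of the 20, 12 belonged to the 49 large subunit genes and 8 to the 27 small subunit genes. Arrays of the groups did not overlap, IDH1mut lower, in 44 members against 23.7% of all genes. The count fell to 13 without empty vector replicate 3 and to 11 without IDH1mut replicate 3, in which members were lowest. In these settings the share of all genes called lower fell as well, from 12.1% to 7.39% and 8.49%.

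Mrps33, a small subunit protein of the mitochondrial lineage, changed most with IDH1mut. It stood at 0.36, 0.49 and 0.47 with empty vector and at 0.02, -0.07 and -0.21 with IDH1mut, without overlap (log2 fold change -0.53 ± 0.09, limma adjusted p = 0.00137). Mrpl19, a large subunit protein with a bacterial counterpart, stood at 0.32, 0.57 and 0.36 against -0.06, -0.08 and -0.12 (log2 fold change -0.50 ± 0.08, limma adjusted p = 0.00126). In Mrpl19 the IDH1mut arrays lay close together, below all 3 empty vector arrays.

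Mrpl12 stood at 0.01, 0.00 and -0.24 with IDH1mut, below all 3 empty vector arrays (log2 fold change -0.48 ± 0.11, limma adjusted p = 0.00707). Mrpl2, which lies at the peptidyl transferase centre, stood at 0.29 in each empty vector array and at -0.01, -0.11 and -0.17 with IDH1mut (log2 fold change -0.39 ± 0.07, limma adjusted p = 0.00313). In Mrpl14 the values 0.00, -0.01 and -0.42 with IDH1mut against 0.25, 0.34 and 0.33 show that replicate 3 held much of the difference (log2 fold change -0.45 ± 0.11, limma adjusted p = 0.0113). The other large falls were Mrps27 (-0.46), Mrpl13 (-0.40), Mrpl27 (-0.40), Mrpl46 (-0.37) and Mrps28 (-0.36), all called. Mrps28 lost its call with the replicate number as a block (limma adjusted p = 0.0506), with any 1 empty vector array left out (0.063 to 0.0946), and without IDH1mut replicate 2 (0.0692) or 3 (0.119). Mrpl27 lost it without empty vector replicate 2 (limma adjusted p = 0.0781) or 3 (0.0582) or IDH1mut replicate 3 (0.0897), and Mrps27 without IDH1mut replicate 3 (0.0608).

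Against the direction of the median, Mrpl9 stood at -0.01, 0.18 and 0.12 with empty vector and at 0.25, 0.43 and 0.31 with IDH1mut. The arrays did not overlap, but the change of 0.23 ± 0.09 missed the threshold (limma adjusted p = 0.0855). It passed with array weights (0.24, limma adjusted p = 0.0446) and in probe set 1427297_at taken singly (0.39, limma adjusted p = 0.0108). Mrps15 and Mrpl48 changed by 0.07 each and were not called. Taken singly, 37 of the 147 probe sets were lower with IDH1mut and 4 higher, against 10.7% and 11.2% of all probe sets. The 4 were of Mrpl9, Mrpl15, Mrpl48 and Mrpl52, and Mrpl15, whose mean change of -0.20 was not called, also had probe sets called lower. Summed over their lists, the T and NK cell markers ran from 1.77 to 3.98 in IDH1mut arrays, the B cell markers from 4.01 to 10.4, the erythroid markers from 1.37 to 3.12 and the mast cell, basophil and eosinophil markers from -6.05 to -1.65. The monocyte and dendritic cell markers ran from -1.99 to -0.54 and the neutrophil lineage markers from -0.23 to -0.02. Except for the B cell, neutrophil and T and NK cell markers, which overlapped the empty vector arrays, these ranges lay apart from those given above for empty vector. An overlapping sum does not mean no change, as opposite changes cancel in it. Of the 11 neutrophil lineage markers 3 were called higher and 4 lower with IDH1mut. Of 7 B cell markers 3 were higher and 0 lower, and of 6 T and NK cell markers 3 were higher and 1 lower. Over all genes 10.5% were higher and 12.1% lower. The part of these markers in the result was not tested.

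The R-2HG and IDH1mut comparisons share their empty vector arrays. Side by side, all 20 genes lower with IDH1mut were also lower with R-2HG, which is 29% of the 69. Mrps6 changed by -1.34 with R-2HG and by -0.33 with IDH1mut (limma adjusted p = 0.156). The latter passed the threshold with its 6 arrays alone (limma adjusted p = 0.015), with quantile normalization (0.013), without R-2HG replicate 3 (0.0199) and without R-2HG replicates 1 and 2 (0.0291). Mrpl50 changed by -0.69 and 0.00, Mrps22 by -0.84 and -0.13, and Mrps33 by -0.70 and -0.53.

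The direct comparison of IDH1mut with R-2HG uses no empty vector array for its difference. By limma 38 members were higher with IDH1mut and 1 lower (Mrpl33), against 20.3% higher and 15.8% lower over all genes, and the median difference was 0.23 on the log2 scale. Mrpl33 (-0.24) lost its call with its 6 arrays alone (limma adjusted p = 0.0623). It also lost it without R-2HG replicate 1 (limma adjusted p = 0.077) or 2 (0.0995), or without IDH1mut replicate 3 (0.0941). Its probe set 1448190_at went the other way, at 0.11 (limma adjusted p = 0.366). Mrps6 was higher with IDH1mut by 1.02 ± 0.16 (limma adjusted p = 0.00138), Mrps22 by 0.71 ± 0.11 and Mrpl50 by 0.69 ± 0.09. For Mrps33 the difference was 0.17 ± 0.09 (95% interval -0.02 to 0.37, limma adjusted p = 0.142), and for Mrpl19 it was 0.10 ± 0.08 (interval -0.08 to 0.28). In either direction 39 members and 36% of all genes were called. Without R-2HG replicate 1 or 2 these were 23 members and 21.3%, or 22 and 19.6%, at a members' median of 0.22 in both cases. With R-2HG replicate 3 as the only treated array they were 2 members and 2.12%, at a median of 0.16. Without IDH1mut replicate 1 or 2 they were 28 members and 29.9% of all genes, or 26 and 26.5%.

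By limma 0 of the 76 members were called in IDH1wt cells against empty vector cells, where 1.35% of all genes were called in either direction. An unadjusted p under 0.05 was found in 22 members, against 16.2% of all genes. The median log2 fold change was -0.12, against -0.04 over all genes. Arrays of the groups did not overlap, IDH1wt lower, in 25 members against 13.6% of all genes. Mrpl19 came nearest, at 0.15, 0.01 and -0.02 with IDH1wt, below all empty vector arrays (log2 fold change -0.37 ± 0.08, limma adjusted p = 0.0533), and its probe set 1450405_at taken singly changed by -0.64 (limma adjusted p = 0.0261). With array weights, which give arrays that fit less well less weight, 12 members and 8.75% of all genes were called. IDH1wt replicate 1 held the highest value of its group in 59 members. Summed over their lists, erythroid markers ran from -7.54 to 1.91 in IDH1wt arrays, and mast cell, basophil and eosinophil markers from 0.49 to 9.33. B cell markers ran from -3.9 to 2.06 and T and NK cell markers from -0.25 to 0.88. Monocyte and dendritic cell markers ran from 2.2 to 3.94 and neutrophil lineage markers from -0.21 to 0.26. The part of these markers in the result was not tested.

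Between IDH1mut and IDH1wt 5 members were called, all lower with IDH1mut: Mrps33, Mrpl2, Mrps2, Mrps30 and Mrpl39. That is 6.58% of the members against 7.29% of all genes called lower (8.37% were called higher), so the share was near the background. An unadjusted p under 0.05 was found in 12, against 28.8% of all genes. Mrps33 stood at 0.43, 0.17 and 0.26 with IDH1wt, above its 3 IDH1mut values (log2 difference -0.37 ± 0.09, limma adjusted p = 0.0151). Mrpl39 stood at 0.31, 0.25 and 0.21 with IDH1wt and at -0.01, 0.00 and 0.05 with IDH1mut (log2 difference -0.24 ± 0.07, limma adjusted p = 0.0308). The count was 1, 3 and 2 without IDH1wt replicate 1, 2 and 3, and 3 and 2 without IDH1mut replicate 1 and 2. All of these were lower, and the share of all genes called lower was 4.55%, 6.3%, 4.23%, 6.17% and 4.31% in the same order.

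Over the 4 groups together, 68 of the 76 members differed by the F test of limma, against 54.6% of all genes. The 10 largest F statistics were those of Mrps30, Mrps28, Mrpl39, Mrps6, Mrpl50, Mrpl12, Mrpl42, Mrps35, Mrps33 and Mrpl2. The smallest were those of Mrps26, Mrpl17 and Mrps15 (limma adjusted p = 0.933, 0.506 and 0.327), of which Mrpl17 and Mrps15 have probe sets called in opposite directions.

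Other genes of mitochondrial translation were also lower with R-2HG, in smaller shares. Of mitoribosomal proteins with other names 3 of 4 measured were lower: Chchd1 (-0.86), Gadd45gip1 (-0.61) and Dap3 (-0.34). Of 14 translation factors 10 were lower, with a median log2 fold change of -0.39, among them Lrpprc, which stabilises mitochondrial messenger RNAs (-0.81 ± 0.07, limma adjusted p = 4.96e-05), the elongation factor Tsfm (-0.73) and the ribosome recycling factor Mrrf (-0.55). Of 21 mitochondrial tRNA synthetases 12 were lower (median -0.33), led by Kars (-0.69), which also serves the cytosol, Tars2 (-0.62) and Yars2 (-0.75).

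Of 21 genes of mitoribosome assembly and ribosomal RNA modification 14 were lower (median -0.34), led by the methyltransferases Trmt61b (-0.81) and Tfb1m (-0.78) and the GTPase Gtpbp10 (-0.60). Of 11 genes of mitochondrial DNA transcription and replication 6 were lower (median -0.19), led by the elongation factor Tefm (-0.95), the helicase Twnk (-0.43) and the transcription factor Tfb2m (-0.41). None of these 5 lists held a gene called higher with R-2HG. With R-2HG replicate 3 as the only treated array the medians were -0.20, -0.24, -0.29, -0.23 and -0.15 in the order given. With replicates 1 and 2 alone the lower counts were 3, 9, 14, 15 and 6. Over all genes 24.3% were lower in full and 25.5% with replicates 1 and 2 alone.

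**Figure D5:**
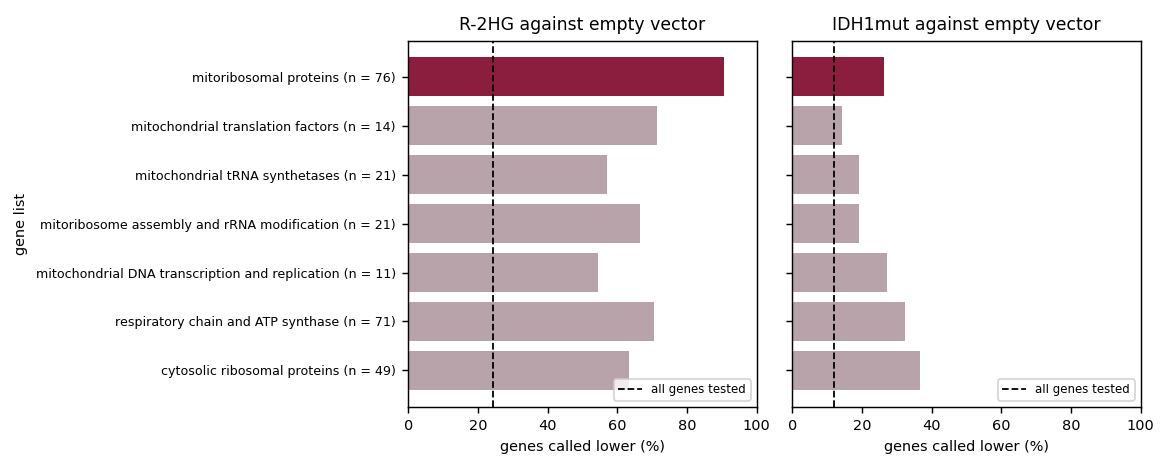
Share of each gene list called lower by limma (horizontal axis, percent) in R-2HG (left) and IDH1mut (right) against empty vector; the dashed line is the share of all 15858 genes. The mitoribosomal proteins stand at 90.8% with R-2HG and 26.3% with IDH1mut, beside dashed lines at 24.3% and 12.1%.

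The products of mitochondrial translation work beside nuclear respiratory chain proteins, of whose 71 measured genes 50 were lower and 0 higher with R-2HG (median -0.27). Of 49 cytosolic ribosomal protein genes 31 were lower and 2 higher (median -0.23). Over all genes 24.3% were lower and 16.5% higher. With R-2HG replicate 3 as the only treated array the medians were -0.24 and -0.18, beside -0.37 in the members. With replicates 1 and 2 alone 47 of 71 were lower, and 31 of 49 lower and 2 higher, against 25.5% lower over all genes. In IDH1mut cells the lower shares were 32.4% of respiratory chain genes and 36.7% of cytosolic ribosomal protein genes. Both were above the 26.3% of the members and the 12.1% of all genes.

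Among 11 regulators of mitochondrial biogenesis 5 were lower and 2 (Esrra and Max) higher with R-2HG, against 24.3% lower and 16.5% higher over all genes. Their median log2 fold change was -0.13, and -0.22 with replicate 3 as the only treated array. With replicates 1 and 2 alone 5 were lower and 2 higher, against 25.5% lower over all genes. Myc, a transcription factor that drives ribosome and mitochondrial genes, stood at 0.42, 0.37 and 0.38 with empty vector, at -0.23, 0.04 and 0.00 with IDH1mut and at -0.98, -0.91 and -0.42 with R-2HG. The R-2HG arrays were the lowest, and replicate 3 was the highest of them. The log2 fold change was -1.16 ± 0.13 with R-2HG (limma adjusted p = 9.1e-05) and -0.45 ± 0.13 with IDH1mut (limma adjusted p = 0.0226). Ppargc1a, the coactivator PGC-1alpha, stood at 0.73, 0.72 and 0.89 with empty vector, at -0.23, -0.26 and -0.14 with IDH1mut and at -0.18, -0.13 and -0.12 with R-2HG. Both groups lay below all empty vector arrays, with log2 fold changes of -0.99 ± 0.08 and -0.92 ± 0.08, and the difference between them was -0.06 ± 0.08 (95% interval -0.23 to 0.11, limma adjusted p = 0.536).

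Esrra, a nuclear receptor that works with PGC-1alpha, was higher with R-2HG by 0.63 ± 0.11 (limma adjusted p = 0.0011), and Max, the partner of MYC, by 0.32 ± 0.07. Pprc1 (-0.72), Gabpb1 (-0.43) and Ppargc1b (-0.43) were lower. Of the factors whose letters were searched in the start regions, Myc and Max are those of the E-box and were called in opposite directions, as given above. Nrf1 changed by 0.09 ± 0.07 (limma adjusted p = 0.365), Yy1 by -0.01 ± 0.06 (limma adjusted p = 0.884) and Gabpa by -0.13 ± 0.08 (limma adjusted p = 0.218), and none of these 3 was called. Gabpa and Gabpb1 both encode subunits of GABP, and Gabpb1 was called lower, as given above. Their part in the result was not tested.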

How the data were processed

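Expression was measured on 12 Affymetrix arrays of biotin-labelled RNA. The deposited values are log2 signals; RMA is named in the submitters' processing notes, and the values show that each probe set was centred on 0 over the arrays, a step no source used here describes. The table held 32533 probe sets, of which 28805 had 1 gene symbol in the platform annotation, 757 several and 2971 none. Probe sets were averaged per gene (15858 genes) and fitted with limma 3.58.1 in R 4.3.3, with 1 coefficient for each of 4 groups, empirical Bayes moderation (8 residual and 3.96 prior degrees of freedom), two-sided tests and Benjamini-Hochberg adjustment over all genes. Genes with adjusted p under 0.05 were called. The number of arrays limits the precision. Promoter windows were scanned in Python 3.11.15. The fit was tested on simulated data. Named genes were the 10 largest called changes in each direction without overlap of arrays, the 3 furthest against the median, the 10 largest and 3 smallest F statistics, members with opposed probe sets, a fixed set of 12, and the 3 smallest p of each other list. The members, lists and tests were chosen with earlier results of these data known. As the values carry no level, the filter on low values became one on the SD. Alternatives are given in the closing section.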

Additional observations from a re-analysis of the deposited data

How the results depend on the processing

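The settings tried were the probe set with the highest SD, single probe sets, quantile normalization, arrays centred on their medians, a filter on the SD (30th percentile), robust moderation, array weights, a fold change minimum of 1.5, the replicate number as a block, the 6 arrays of a comparison alone, and each array or R-2HG replicates 1 and 2 left out; a lone array left in a group is assumed to vary like the others. The counts of members called ranged, over the 12 arrays left out in turn, from 11 to 25 in IDH1mut against empty vector (20 in full), 61 to 70 in R-2HG against empty vector (70), 0 to 1 in IDH1wt against empty vector (0), 1 to 7 in IDH1mut against IDH1wt (5), 22 to 44 in IDH1mut against R-2HG (39) and 51 to 67 in the F test (68). Over all genes the shares called ranged, in the same order and settings, from 15.3% to 25.9%, 28.9% to 44.3% and 0.53% to 2.36%. For the rest they ranged from 9.89% to 18.8%, 19.6% to 41% and 40.2% to 57.1%. Without R-2HG replicates 1 and 2 the counts were 30 in R-2HG against empty vector, 2 in IDH1mut against R-2HG and 27 in the F test. The 1.5-fold minimum left 0 members in IDH1mut against empty vector (5.86% of all genes) and against IDH1wt (3.76%). It left 24 in R-2HG against empty vector (10.3% of all genes), 6 in IDH1mut against R-2HG (6.5%) and 24 in the F test (16.3%). Single probe sets called 31 members in IDH1mut against empty vector, 28 with a lower and 4 with a higher probe set, 1 of them with both. The share of all genes called in this way was 28.8%. In IDH1wt against empty vector 1 member was called with the highest-SD probe set, quantile normalization or single probe sets, and 12 with array weights. The shares of all genes were 2.41%, 2.68%, 3.05% and 8.75% in that order. In IDH1mut against IDH1wt the count was 8 with quantile normalization (17.8% of all genes) and 2 with its 6 arrays alone (11.6%).

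Same-numbered replicates did not deviate together (r from -0.152 to 0.124 over 18 pairs of arrays), so the numbers were not taken to pair them. With the replicate block the counts were 16, 67, 0, 3, 36 and 62 in the order above. The shares of all genes were then 20.5%, 39%, 0.927%, 13.7%, 33.7% and 51.1%.

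Log2 fold changes changed sign by choice of probe set. In R-2HG against empty vector Mrpl17 was -0.68, Mrpl58 0.61 and Mrps15 0.70 with the highest-SD probe set, which is also the single probe set at issue, and single probe sets gave 0.31 for Mrpl47, 0.63 for Mrpl48 and 0.30 for Mrps11. In IDH1mut against R-2HG the values were -0.38 for Mrps15 (highest SD and single), 0.11 for Mrpl33, -0.35 for Mrpl47, -0.28 for Mrpl48 and -0.50 for Mrps5, and in IDH1mut against empty vector 0.42 for Mrpl15. The cause was not tested.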

Other observations

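Probe sets that name a member beside another gene were left out of the 76 genes, and 4 were found. With R-2HG against empty vector, 1423857_at (Gm6238 and Mrpl30) changed by -0.54 (limma adjusted p = 0.00101) and 1448905_at (Nme3 and Mrps34) by -0.66 (limma adjusted p = 0.0083). Probe set 1447651_x_at (Gm6238 and Mrpl30) changed by 0.22 and 1451178_at (Ccdc142 and Mrpl53) by -0.20, and neither was called. In IDH1wt against empty vector 1451178_at was lower by limma (log2 fold change -0.39, adjusted p = 0.0426). Which of the genes named gave these signals cannot be told apart.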
